A study of Mus musculus with 18 samples.

Results

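Expression of 9 genes for proteins that the liver secretes into blood (hepatokines) was examined in whole liver from male and female mice that carry the 446P or the 446L form of the glucokinase regulatory protein GKRP. The genes were taken by name: Angptl4, Angptl6, Angptl8, Fgf21, Inhbc, Inhbe, Lect2, Selenop and Gdf15. They are 9 of the 52230 genes whose transcripts could be summed, and 8 of them were among the 10938 genes with enough counts to be tested. Mice of the line GCKR-P446L-EMI-B6N were homozygous for the wild-type 446P form (PP) or for the knock-in 446L form (LL), and there were 4 livers each of male PP and male LL and 5 each of female PP and female LL. All 18 mice were fed standard chow, and 1 RNA library was made from the liver of each mouse. The labels give ages of 9 to 14 wk for male PP and female PP, 13 to 14 wk for male LL and 11 to 14 wk for female LL, whereas the description of the series gives 14 wk. The knock-in is in the germline, so it is present in every cell of the LL mice, and no mouse carried a deletion of Gckr.

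GKRP binds glucokinase in the hepatocyte nucleus and holds it inactive until glucose or fructose rises after a meal, and the study asked how the 446L form alters liver gene expression in each sex. Hepatokines carry the metabolic state of the liver to other tissues. ANGPTL4 and ANGPTL8 restrain lipoprotein lipase, the enzyme that clears triglyceride from plasma, FGF21 acts on adipose tissue and brain, activin subunits are ligands of the TGF-beta superfamily, and selenoprotein P delivers selenium. Transcription of several of them is known to respond to fatty acids through PPARalpha, to glucose through ChREBP or to amino acid shortage through ATF4.

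Total estimated counts were 3794671 to 6613905 per library. The mean length of the sequenced fragments, read back from the files, was 518 ± 95.7 bases (SD, n = 4) in male PP, 407 ± 156 bases (n = 4) in male LL, 448 ± 108 bases (n = 5) in female PP and 292 ± 52.1 bases (n = 5) in female LL, so mean fragment length was lower in LL in both sexes. Gckr itself, the edited gene, did not pass the test in any comparison of groups, with normalized counts of 400 to 581 in male PP, 464 to 515 in male LL, 520 to 779 in female PP and 526 to 691 in female LL. A gene count does not show the edited codon, so the genotype labels could not be checked this way. Hepatocyte markers were abundant in each library, with a sum over 5 genes of 404230 to 789551 normalized counts, while of 6 adipocyte markers Adipoq, Retn and Lep had no counts in any library, Plin1 and Cfd at most about 1, and Cidec, which hepatocytes can also express, made up most of a sum of 4.94 to 31.7 normalized counts. The library of male PP 2 stood apart in acute-phase genes, with 12575 normalized counts of Saa1 against 591 to 2043 in the other male PP livers, and without it 0 of 8 tested hepatokines were called in the comparisons that use male PP, as with it. In whole liver, fewer cells of a type and less RNA per cell cannot be told apart.

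Some sequences are shown first because the counts below rest on them. Angptl4 (chromosome 17, 33992724 to 34000804, minus strand, GRCm39) has a protein-coding transcript, Angptl4-201, and a transcript annotated as a target of nonsense-mediated decay, Angptl4-202. The last 21 bases of exon 2 and the first bases of exon 3 of each are given 5′ to 3′, with the 4 bases that exon 3 of Angptl4-202 lacks in capitals. Exon 3 starts at 33999621 in the former and at 33999617 in the latter.
Angptl4-201: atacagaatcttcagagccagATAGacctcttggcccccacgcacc
Angptl4-202: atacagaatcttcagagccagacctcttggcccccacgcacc
Of the 1829 different 31-base words of Angptl4-202, 1802 also occur in Angptl4-201, and the 27 that do not all cross this junction. Angptl4-201 is longer by 287 bases at its start and by 1158 bases at its end. Reads that assign counts to Angptl4-202 rather than Angptl4-201 therefore cross a single splice junction, or are weighed by what is missing from the ends.

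The 140 bases before the transcription start are shown for Fgf21, Angptl8 and Lect2, the first pair because their motif matches can be compared and Lect2 because it differed between groups below. Capitals mark matches, on either strand, to TATAAA, to the E-box letters CACGTG that ChREBP and other factors bind, to TGATGNAAT (the amino acid response element bound by ATF4 with a C/EBP partner), to TTCNNNGAA (the STAT core) or to AGGTCA repeated directly with 1 base between (the PPAR element).
Fgf21, chr7:45264915-45265054, minus strand: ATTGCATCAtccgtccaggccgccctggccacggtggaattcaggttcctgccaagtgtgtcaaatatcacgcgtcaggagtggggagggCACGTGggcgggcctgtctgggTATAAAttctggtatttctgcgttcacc
Angptl8, chr9:21746646-21746785, plus strand: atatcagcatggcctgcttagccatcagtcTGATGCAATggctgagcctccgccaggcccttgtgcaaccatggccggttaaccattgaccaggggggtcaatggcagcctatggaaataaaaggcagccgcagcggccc
Lect2, chr13:56696361-56696500, minus strand: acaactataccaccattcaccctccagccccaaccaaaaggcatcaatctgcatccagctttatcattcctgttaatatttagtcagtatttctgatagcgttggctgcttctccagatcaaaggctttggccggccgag
All coordinates are GRCm39. Fgf21 and Angptl8 both hold TGATGNAAT, in the same 9 letters on opposite strands, 140 and 110 bases before the start. Over 250 bases before the start, this motif was found in 0.882% of 21770 protein-coding genes, TATAAA in 12.5%, CACGTG in 5.69%, TTCNNNGAA in 7.82% and the PPAR element in 0.0413%. These shares use the outermost annotated start of each gene. The windows of the hepatokines lie before the start of the transcript with the most counts. The 2 kinds of start differ for Angptl4, Fgf21, Lect2, Selenop and Gdf15, so the shares are only a rough guide there. The window of Angptl4 lies before the start of Angptl4-202, which is 287 bases downstream of the start of Angptl4-201, and held TATAAA at 2 places, the nearer at 28 bases. In its own window Fgf21 also held CACGTG at 50 and TATAAA at 28 bases, and the windows of Angptl6, Inhbc, Inhbe, Lect2, Selenop and Gdf15 held no match to these letters. A match is a description of the sequence, not evidence of a bound site.

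Levels per length of transcript (TPM, transcript copies scaled to the same total in each library) differed widely between the genes. The median over 18 libraries was 2968 TPM for Selenop, 152 for Lect2, 50.6 for Angptl4, 22.5 for Inhbc, 11.1 for Angptl8, 7.97 for Inhbe, 2.17 for Angptl6, 1.4 for Fgf21 and 0.128 for Gdf15. Selenop was the 51st gene by mean TPM among those tested, Lect2 the 551st, Angptl4 the 1179th and Fgf21 the 7404th. Selenop exceeded Lect2, Lect2 exceeded Angptl4, Angptl4 exceeded Inhbc and Inhbe exceeded Angptl6 in 18 of 18 libraries. Other neighbours in the order changed places between mice: Inhbc exceeded Angptl8 in 13 libraries, Angptl8 exceeded Inhbe in 14, Angptl6 exceeded Fgf21 in 8, and Fgf21 exceeded Gdf15 in 16.

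**Figure D1:**
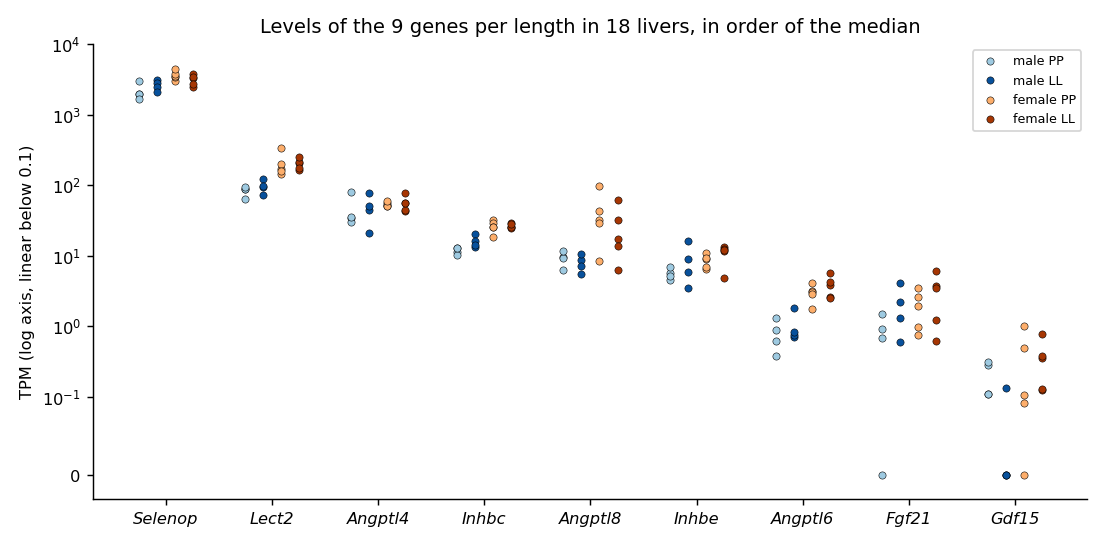
TPM of the 9 genes in order of their median, with 1 point for each of 18 livers coloured by group; the y axis is logarithmic and linear below 0.1. Selenop lies near 2968 TPM and Gdf15 near 0.128, and the points of Inhbc, Angptl8 and Inhbe overlap.

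A gene was called when its DESeq2 adjusted P was below 0.05 and its fold change was at least 1.3 or at most 0.7. Between LL and PP males, 0 of 8 tested hepatokines were called, where 0.283% of all tested genes were (0.210% higher and 0.0731% lower). In females 1 of 8 was called, Lect2, which was higher in LL, against 0.658% of all tested genes (0.366% higher and 0.293% lower). Between the sexes, 0 of 8 were called in PP mice (6.45% of all genes, 3.68% higher and 2.77% lower) and 2 of 8 in LL mice (6.12% of all genes, 3.33% higher and 2.79% lower), Lect2 and Angptl6, both higher in females. The averaged effect of LL over both sexes called 0 of 8 (0.978% of all genes), and the interaction of genotype with sex 0 of 8 (0.119% of all genes). At an unadjusted DESeq2 P below 0.05 the counts were 1, 1, 3, 4, 2 and 1 of 8 in that order. Of all 10938 tested genes, 856, 1427, 1913, 2190, 1513 and 620 reached that limit. Independent filtering on mean counts left some genes without a DESeq2 adjusted P, so they could not be called. In males these included Angptl6, Angptl8 and Fgf21, and in females Fgf21. In the average they included Angptl6 and Fgf21, and in the interaction Angptl6, Angptl8, Fgf21 and Inhbc. An adjusted P was given to 3301 of the 10938 genes in males, 8598 in females, 7541 in the average and 1606 in the interaction. With the quasi-likelihood test of edgeR the numbers called were 0, 0, 0, 2, 0 and 0, where 0.0274%, 0.0274%, 5.24%, 4.28%, 0.0823% and 0% of all genes were. These comparisons share groups, for example female LL enters 2 of the pairwise ones, so they are not independent of each other. Median log2 fold changes of the 8 genes were 0.03 in males and 0.29 in females for LL, and 0.31 in PP and 0.40 in LL for females against males, where medians over all genes were 0.00, 0.01, -0.00 and 0.01.

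**Figure D2:**
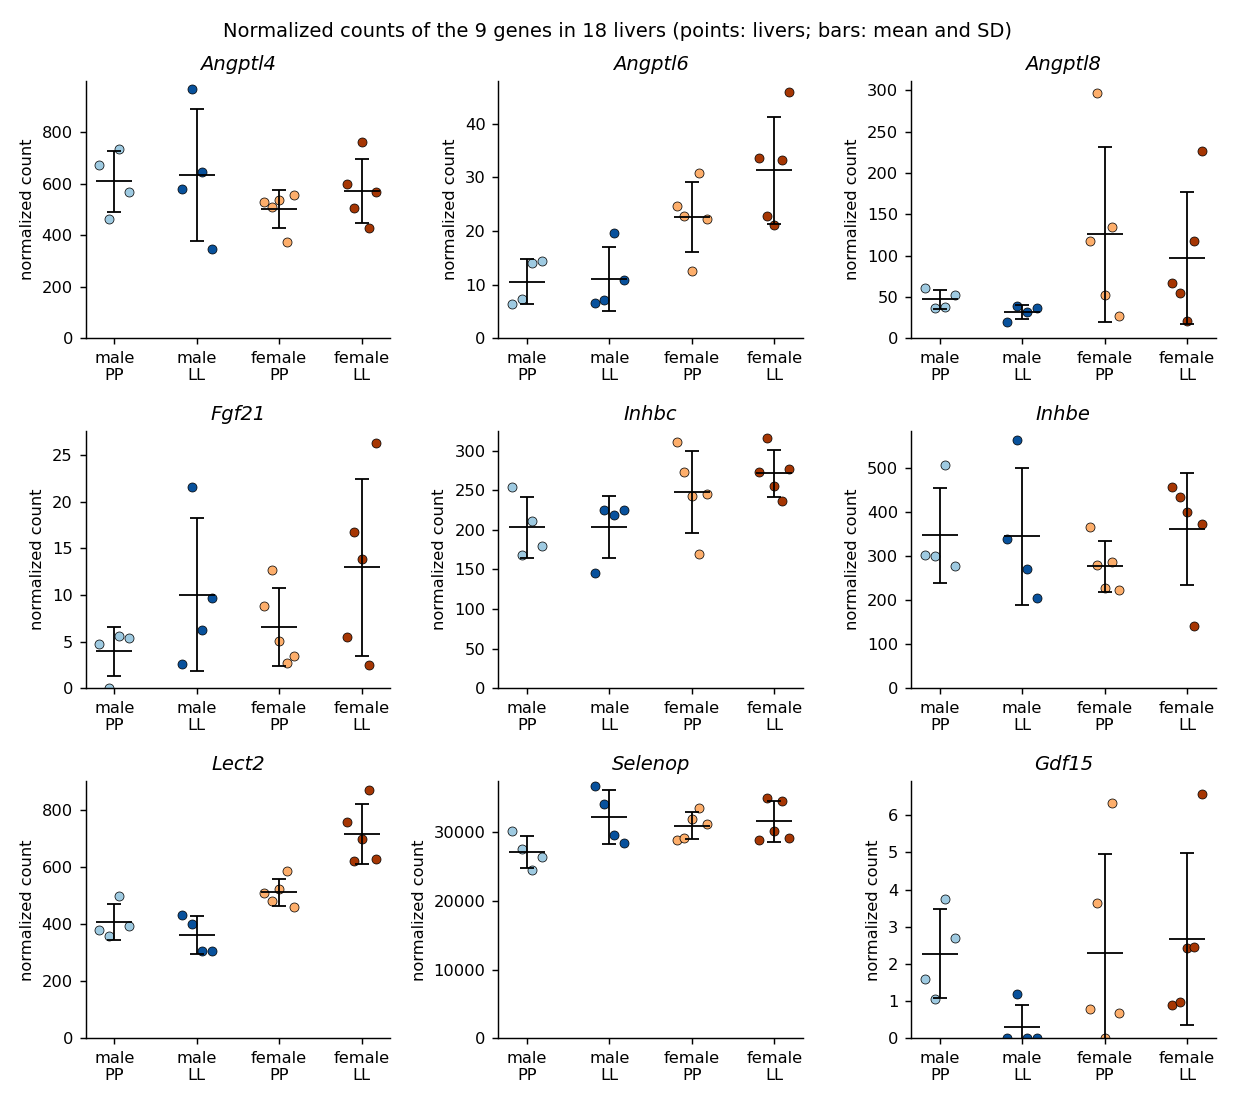
DESeq2-normalized counts of each gene (y axis, own scale from 0) by group; points are livers, and bars give the mean and SD. Lect2 in female LL (621 to 870) lies above the other groups, Angptl6 is higher in female LL than in male LL, and Angptl8 is spread widely in females (21.1 to 297).

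**Figure D3:**
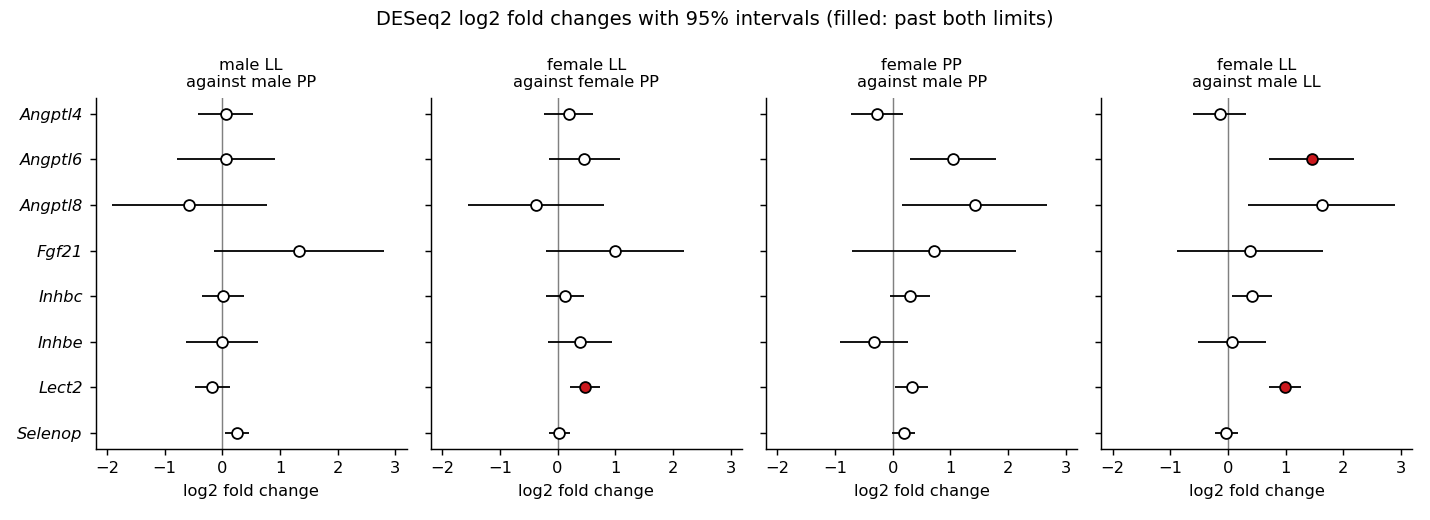
DESeq2 log2 fold changes (x axis) with 95% intervals for the 8 tested genes in 4 comparisons; filled points passed both limits. Filled points are Lect2 in females by genotype (0.48), and Lect2 (0.99) and Angptl6 (1.45) in LL mice by sex.

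Lect2 encodes leukocyte cell-derived chemotaxin 2, a protein made by hepatocytes that binds the receptors MET and TIE1. The gene lies on chromosome 13, 56684477 to 56696569, minus strand, and 99.8% of its estimate was on the 837-base transcript Lect2-201. Normalized counts were 379, 357, 498 and 392 in male PP and 433, 400, 304 and 307 in male LL. In females they were 508, 482, 523, 584 and 459 in PP and 757, 621, 697, 870 and 626 in LL. The lowest female LL liver was thus above the highest female PP liver, a separation that 1.50% of all tested genes showed in this direction, while the male groups overlapped. Means were 714 ± 103 (SD, n = 5) in female LL and 511 ± 47.7 (n = 5) in female PP, a log2 fold change of 0.48 ± 0.13 (SE) with a DESeq2 adjusted P of 0.0391. In males the log2 fold change was -0.18 ± 0.15 with a DESeq2 adjusted P of 0.720.

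The size of the Lect2 difference in females depended on how transcript length was treated. The part of a transcript from which fragments can be drawn, its effective length, is shorter when fragments are long, and for Lect2 it was 416 ± 120 bases (SD, n = 5) in female PP and 550 ± 52.8 bases (n = 5) in female LL. In TPM, which divides by that length, Lect2 was 202 ± 77.0 (n = 5) in female PP and 203 ± 34.7 (n = 5) in female LL, with single livers at 146, 168, 334, 202 and 158 in PP and at 205, 163, 216, 252 and 177 in LL, and these groups overlapped. Medians were 168 in PP and 205 in LL. The liver at 334 was female PP 3, whose library had the longest fragments of all (631 bases). With the length as an offset the log2 fold change was 0.11 and the DESeq2 adjusted P 0.918, and with fragment length as a term they were 0.41 and 0.510. The call was also lost with edgeR (adjusted P 0.210), with age as a term in DESeq2 (0.104), and without any 1 of female PP 1, 2, 3 or 5 or female LL 1 or 4, where adjusted P was 0.128 to 0.195. Marker sums moved in the same comparison: 7 Kupffer cell markers summed to 958 to 1189 in female PP and 596 to 932 in female LL, and the hepatocyte sum was 692106 to 789551 and 581621 to 705413. Markers of sinusoidal endothelium summed to 329 to 655 in female PP and 263 to 514 in female LL. Of these 6 markers 4 had an unadjusted DESeq2 P below 0.05, as did 1427 of all 10938 tested genes, and 0 were called. The mitochondrial share of counts was 9.09 to 12.0% in female PP and 10.5 to 13.7% in female LL. The part of the markers and of the mitochondrial share in the result was not tested.

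**Figure D4:**
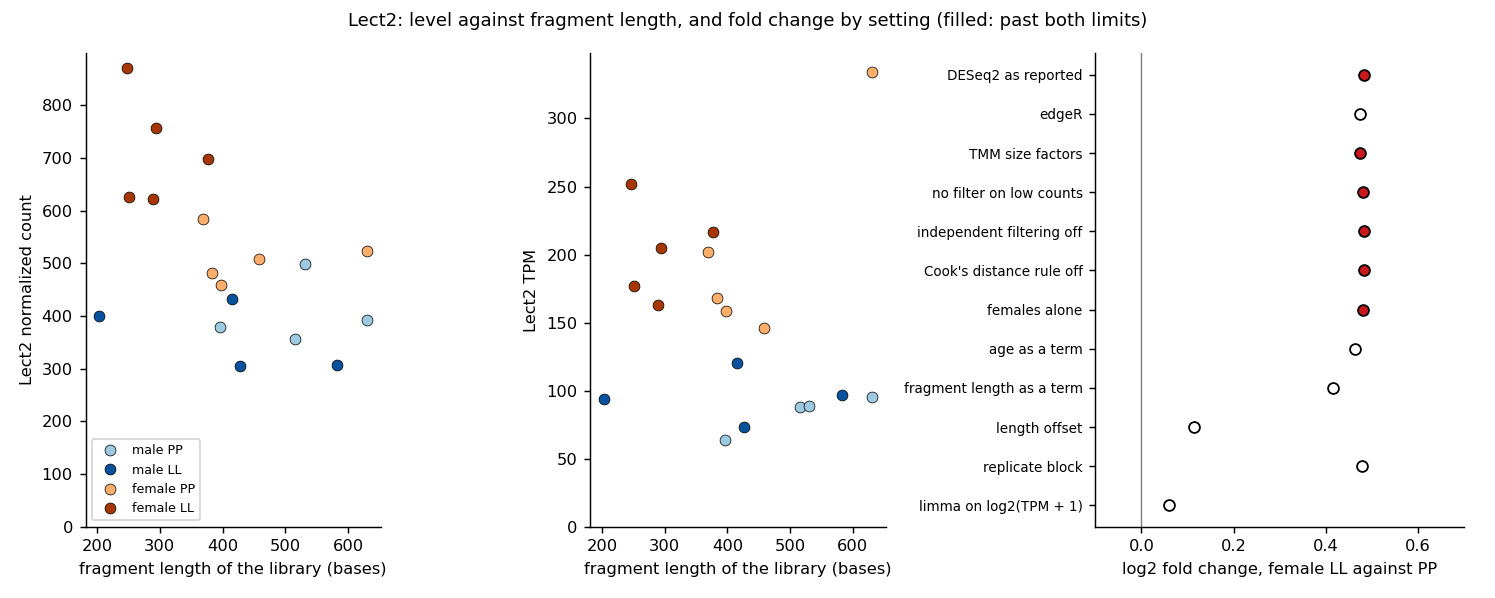
Left and middle, Lect2 in normalized counts and in TPM (y axes from 0) against the fragment length of each library in bases (x axis), 1 point for each of 18 livers; right, log2 fold change of Lect2 in female LL against PP under each setting, filled where it passed both limits. Fragments of female LL libraries run from 247 to 377 bases and those of female PP from 369 to 631, and all fold changes in the right panel, from which fits without single libraries are left out, lie above 0.

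Between the sexes Lect2 was higher in females in LL mice, by 0.99 ± 0.14 on the log2 scale with a DESeq2 adjusted P of 1.49e-09. It remained called in 21 of 21 alternatives, with log2 fold changes of 0.76 to 1.08 and adjusted P up to 0.0346. In PP mice the difference was 0.33 ± 0.14 with a DESeq2 adjusted P of 0.176, and the groups overlapped. The interaction of genotype and sex was 0.66 ± 0.20 with a DESeq2 adjusted P of 0.0845, so the genotype difference in females was not shown to differ from that in males. Of the receptors, Met and Tie1 were tested and neither was called in any comparison, with log2 fold changes in females by genotype of -0.03 ± 0.17 and -0.58 ± 0.38.

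Angptl6 encodes angiopoietin-related growth factor. It lies on chromosome 9, 20785103 to 20791064, minus strand, and was measured on the 1582-base Angptl6-201. Normalized counts were low, at 6.40, 7.34, 14.1 and 14.4 in male PP and 6.48, 7.19, 19.6 and 10.8 in male LL. In females they were 24.8, 22.7, 12.6, 30.8 and 22.2 in PP and 33.7, 22.7, 21.1, 33.3 and 46.0 in LL. All female LL livers were above all male LL livers, as for 3.64% of all tested genes, whereas female PP 3 lay within the range of the PP males. Means were 31.4 ± 10.02 (SD, n = 5) in female LL and 11.0 ± 6.04 (n = 4) in male LL. The log2 fold change was 1.45 ± 0.38 with a DESeq2 adjusted P of 0.00444, and it passed in 21 of 21 alternatives (adjusted P up to 0.0334). In PP mice the log2 fold change was 1.05 ± 0.38 with a DESeq2 adjusted P of 0.0733. It was called in 3 of 21 alternatives, such as without female PP 3 (DESeq2 adjusted P 0.0317). Over all these alternatives adjusted P was up to 0.238. By genotype Angptl6 differed by 0.06 ± 0.43 in males, without an adjusted P, and by 0.46 ± 0.31 in females, and neither was called. In the comparison of LL mice by sex, the hepatocyte sum was 487493 to 574727 in males and 581621 to 705413 in females. Alb made up most of this sum, with a mean of 519897 normalized counts over all libraries. Means of Cps1, Apoa1, Ttr and Serpina1e were 15430 to 24214. The median log2 fold change of the 5 markers was -0.23, with 0 called higher and 1 lower, Serpina1e. The part of the hepatocyte markers in the differences of Angptl6 and Lect2 was not tested.

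Angptl8 encodes a small secreted protein that is induced by feeding and insulin. It lies on chromosome 9, 21746786 to 21748643, plus strand, within an intron of Dock6 with no shared exon bases. Normalized counts were 60.8, 36.7, 37.6 and 52.2 in male PP and 19.4, 38.4, 31.2 and 36.7 in male LL. In females they were 118, 297, 52.0, 134 and 26.4 in PP and 66.5, 54.3, 21.1, 117 and 227 in LL. Some female livers were several times above all males while others were within the male range, so no 2 groups separated between the sexes. Females against males gave a log2 fold change of 1.42 ± 0.64 in PP and 1.62 ± 0.65 in LL, with DESeq2 adjusted P of 0.193 and 0.110. In LL it was called in 2 of 21 alternatives, without female LL 3 (DESeq2 adjusted P 0.0351) and with the LL libraries alone (0.0326). Over all these alternatives adjusted P was up to 0.430. In PP it was called in 1 of 21, with adjusted P up to 0.619. LL against PP gave -0.57 ± 0.69 in males, without an adjusted P, and -0.37 ± 0.60 in females. The 95% interval in females, -1.55 to 0.80, left room for changes of either sign.

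Angptl4, an inhibitor of lipoprotein lipase and a known PPARalpha target, was not called in any comparison, and its spread within groups was wide. Male livers had normalized counts of 674, 464, 734 and 568 in PP and 581, 969, 646 and 346 in LL. Those of females were 530, 512, 539, 375 and 558 in PP and 599, 507, 764, 428 and 570 in LL. All pairs of groups compared overlapped. By LL genotype the log2 fold change was 0.06 (95% interval -0.42 to 0.54) in males and 0.19 (-0.24 to 0.62) in females, and DESeq2 adjusted P was 0.980 and 0.735. By sex it was -0.28 ± 0.23 in PP and -0.15 ± 0.23 in LL.

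Of 12 other genes of the angiopoietin-like family and the lipoprotein lipase axis, 10 were tested. None of these 10 was called by genotype in either sex. In PP mice 3 of 10 were higher in females (3.68% of all tested genes were), Lipc (hepatic lipase, 871 ± 98.9 against 551 ± 88.1), Angptl2 (44.7 ± 3.78 against 18.1 ± 11.4) and Gpihbp1 (38.9 ± 10.8 against 18.5 ± 6.32), which anchors lipoprotein lipase on capillaries. In LL mice 2 of 10 were higher in females (3.33% of all tested genes), Lipc again (949 ± 107 against 525 ± 103) and Apoc3, another brake on triglyceride clearance (11530 ± 1544 against 6438 ± 2317). The call for Apoc3 was lost with fragment length as a term, with the length offset and in TPM. Markers of sinusoidal endothelium, the cells that line liver capillaries, were also higher in PP females, with a sum over 6 genes of 329 to 655 against 192 to 315 in PP males, and their part in these differences was not tested. Of 12 PPARalpha targets, a class to which Angptl4 also belongs, 7 were called higher in females in PP mice (3.68% of all tested genes) and 2 in male LL against PP (0.210% of all tested genes). The latter were Cyp4a14 (log2 fold change 3.98 ± 0.70) and Ehhadh (0.84 ± 0.24), and beside them Angptl4 differed by 0.06 ± 0.24. Without male PP 2 the counts were 6 and 1, and Ehhadh in males by genotype was called in 8 of 19 alternatives.

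Transcripts of Angptl4 were split unevenly. Angptl4-202 held 79.1% of the estimated counts over all libraries and Angptl4-201 18.9%. The share of Angptl4-202 was 79.4 ± 1.46% (SD, n = 4) in male PP, 74.7 ± 8.28% (n = 4) in male LL, 81.7 ± 4.31% (n = 5) in female PP and 80.4 ± 6.51% (n = 5) in female LL. It ranged from 65.8% to 83.2% among male LL livers and from 78.1% to 81.5% among male PP livers. LL against PP differed by -4.68 percentage points in males (two-sided exact permutation test, P = 0.4, adjusted 0.619) and by -1.25 in females (exact P = 0.754, adjusted 0.754), and female PP against male PP by 2.27 (exact P = 0.413, adjusted 0.619). As a share of TPM the first pair of differences was 8.64 and 1.89 percentage points, of the opposite sign (exact permutation P = 0.743 and 0.889). In each sex that sign rests on a single PP library. Male PP 4 was at 39.2% of TPM, against 79.3% to 83.1% in the other male PP livers. Female PP 4 was at 61.3%, against 76.4% to 90.6% in the other female PP livers. The split is an estimate that leans on the junction words shown above and on the annotated ends, and what fraction of the RNA is subject to decay was not measured.

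**Figure D5:**
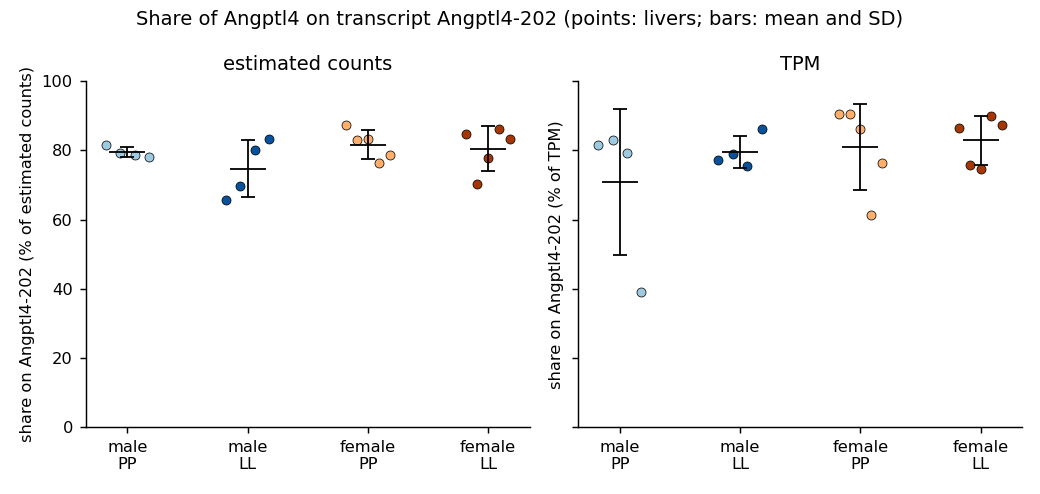
Share of Angptl4 assigned to Angptl4-202 in percent (y axis, 0 to 100) of estimated counts (left) and of TPM (right) by group; points are livers, and bars give the mean and SD. Group means of the left panel lie between 74.7% and 81.7% and overlap.

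Fgf21 encodes the fasting and stress hormone FGF21, which signals through FGFR1 with the co-receptor KLB. It lies on chromosome 7, 45263301 to 45266963, minus strand, and was close to the limit of detection. Normalized counts were 4.80, 0, 5.64 and 5.40 in PP males and 2.59, 21.6, 6.25 and 9.72 in LL males. Female livers had 8.78, 12.7, 5.04, 2.72 and 3.47 in PP and 5.46, 16.8, 13.8, 2.47 and 26.3 in LL. Higher values occurred in some LL livers of each sex, and the groups overlapped. By LL genotype the log2 fold change was 1.34 ± 0.75 in males, 1.00 ± 0.61 in females and 1.17 ± 0.49 averaged over the sexes. For the average the unadjusted DESeq2 P was 0.0163 and the filter on mean counts left it without an adjusted P. Where an alternative gave one it was 0.215 to 0.548. Females and males differed by 0.72 ± 0.72 in PP and 0.38 ± 0.65 in LL.

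Of 6 genes for FGF21 receptors and processing, 5 were tested. Klb, the FGF21 co-receptor, was lower in female LL (42.4 ± 10.9, n = 5) than in female PP (74.6 ± 13.8, n = 5), with a log2 fold change of -0.80 ± 0.23 and a DESeq2 adjusted P of 0.0456. This call held in 6 of 21 alternatives, 2 of which left it without an adjusted P, and adjusted P was 0.194 with edgeR and 0.499 with fragment length as a term in DESeq2. The shifts of hepatocyte, Kupffer cell and endothelial markers given for Lect2 belong to the same comparison, and their part in the difference of Klb was not tested. In PP mice Klb was higher in females than in males (43.1 ± 14.7, n = 4), as was Fgfr2 (119 ± 25.4 against 68.7 ± 26.6), with DESeq2 adjusted P of 0.0209 and 0.0224. Both of these calls were lost without male PP 2. Fgfr1 and Fgfr4, by contrast, were not called in these comparisons. Among 12 targets of the integrated stress response, a class to which Fgf21 and Gdf15 belong, 6 were tested and 0 were called by genotype in either sex. Between PP females and males 1 of 6 was called higher (3.68% of all tested genes), Atf5 (467 ± 146 against 275 ± 50.6). Another 1 of 6 was called lower (2.77% of all tested genes), Asns (0.873 ± 1.11 against 28.2 ± 15.5), which was close to the limit of detection in PP females.

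Inhbc and Inhbe encode the activin subunits beta C and beta E, which are made mainly by hepatocytes. They are neighbours on chromosome 10, 608 bases apart on the minus strand (Inhbc 127190888 to 127206430, Inhbe 127184726 to 127190280). Male livers had Inhbc counts of 254, 168, 212 and 180 in PP and 145, 225, 219 and 225 in LL. Those of females were 311, 274, 243, 169 and 245 in PP and 273, 316, 255, 237 and 277 in LL. All female LL livers were above all male LL livers, as for 3.64% of all tested genes, but the log2 fold change of 0.41 ± 0.18 had a DESeq2 adjusted P of 0.146. By genotype Inhbc differed by 0.01 (95% interval -0.36 to 0.38) in males and 0.13 (-0.19 to 0.45) in females. Normalized counts of Inhbe were 302, 300, 509 and 279 in PP males and 340, 563, 271 and 206 in LL males. Female livers had 367, 280, 229, 288 and 224 in PP and 458, 436, 402, 142 and 373 in LL. Single livers set its spread, since female LL apart from replicate 4 ran from 373 to 458 and female PP from 224 to 367, while replicate 4 lay at 142. By genotype males differed by -0.01 ± 0.32 and females by 0.38 ± 0.28 on the log2 scale, and DESeq2 adjusted P was 0.997 and 0.553. Of 16 other genes of the activin, inhibin and follistatin axis, 10 were tested and 0 were called in the 6 comparisons. Inha, the partner in inhibins, reached at most 1 count, and Fst, the activin antagonist, at most 16.9.

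Selenop encodes selenoprotein P, which carries selenium from liver to other organs. It lies on chromosome 15, 3298029 to 3313686, plus strand, and 93.9% of its estimate was on Selenop-201. Male livers had normalized counts of 30057, 27466, 24494 and 26283 in PP and 36731, 34045, 29507 and 28324 in LL. Those of females were 28764, 29177, 31936, 33419 and 31103 in PP and 28872, 34876, 30158, 34522 and 29146 in LL. Male PP had the lowest livers, and 2 of 4 male LL livers lay above the highest of them. The log2 fold change in males was 0.25 ± 0.11 with a DESeq2 adjusted P of 0.312, and with transcript length as an offset it was -0.06. In females it was 0.03 (95% interval -0.15 to 0.21). Of 19 other genes on a list of selenoproteins, their synthesis and receptors such as Lrp1, 18 were tested and 0 were called by genotype. In LL mice 2 of 18 were higher in females (3.33% of all tested genes), Selenow (273 ± 77.5 against 170 ± 33.2) and Lrp1 (1189 ± 343 against 770 ± 200). Selenow was called in 11 and Lrp1 in 7 of 20 alternatives.

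Gdf15 encodes a stress hormone that acts on the receptor GFRAL with RET in the hindbrain. It lies on chromosome 8, 71082038 to 71091537, minus strand, and did not reach the count filter. Normalized counts were 1.60, 1.05, 3.76 and 2.70 in PP males and 0, 1.20, 0 and 0 in LL males. Female livers had 0.798, 3.64, 0, 6.34 and 0.694 in PP and 0.910, 0.988, 2.44, 2.47 and 6.57 in LL. The highest estimated count in any library was 7.02, and a count of 0 allows up to 3 at this depth (counting error only), so no fold change is given and a difference was not detectable. Gfral and Ret had no counts in any library.

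Among 22 other secreted hepatokines, 21 were fitted and 0 were called by genotype in either sex. One of them, Lcn2, got no P in these comparisons, and its normalized counts were 445 in male PP 2 and 22.4 to 36.9 in the other male PP livers. In PP mice 4 of 21 were higher in females (3.68% of all tested genes), Sparc (172 ± 30.3 against 68.7 ± 14.4), Gdf2 (58.2 ± 6.16 against 31.1 ± 6.54), Agt (2060 ± 504 against 1186 ± 122) and Ahsg (50328 ± 5846 against 36431 ± 8475). In LL mice 2 of 21 were (3.33% of all tested genes), Agt (2237 ± 863 against 1130 ± 143) and Ahsg (42995 ± 6703 against 31358 ± 3288). The calls for Ahsg held in 9 of 20 alternatives in PP and 7 of 20 in LL. The median log2 fold change of the 21 was 0.28 in PP and 0.31 in LL for females against males, and -0.01 in males and 0.10 in females for LL against PP. Stellate cell markers were higher in PP females too, with a sum over 7 genes of 1179 to 1395 against 482 to 896 in PP males, and Sparc and Gdf2 are known products of such nonparenchymal cells. The part of these cells in the result was not tested.

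Several of these genes share sequence with a gene on the opposite strand, and whether the libraries kept strand is not stated in the sources used here. Words were counted over all annotated transcripts of a gene, some of which were not measured. Lect2 has 1818 such words, whereas its measured transcripts have 837 and 823 bases. The shares below can therefore differ from those of the sequence behind the counts. Of the 31-base words of Lect2, 31.6% also occur in exons of Fbxl21, whose own level was 3.2 to 27.3 normalized counts, far below that of Lect2. For Selenop 17.5% of words are shared, mainly with Ccdc152 (3.19 to 90.7 normalized counts). For Angptl6 12.8% are shared with Shfl, which at 58.3 to 151 was more abundant than Angptl6 itself, so part of the Angptl6 estimate could belong to Shfl. For Fgf21 13.6% are shared with Fut1 (0 to 1.82), and for Angptl8 no word is shared. For Inhbc 28.6% are shared, most with the lncRNA Gm66251, which was not measured.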

How the data were processed

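RNA from 18 mouse livers was extracted with Trizol and RNeasy columns with DNase treatment, and RNA of integrity number above 6 was sequenced. Per the labels, reads were checked with FastQC and quantified with Salmon 1.4.0 against GRCm39. The deposited files hold, for each of 139225 transcripts, an effective length, TPM and an estimated count, which the authors made with Salmon against GENCODE transcripts and did not pool, so 90.8% of the estimated counts above 0 are not whole. The deposited TPM values are scaled by the authors to effective length and library total. Transcripts were joined to genes by identifier (137570 joined, 1655 not joined, at least 99.8% of counts in each library), summed per gene and rounded. Fragment length was taken as length minus effective length of transcripts of at least 3000 bases.

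The 10938 genes that reached 10 counts in 4 or more libraries were fitted with DESeq2 1.42.0 (Wald test, median-of-ratios size factors, Benjamini-Hochberg over all tested genes) in R 4.3.3, with all 18 libraries and 4 groups in 1 fit. A call needed both an adjusted P under 0.05 and a fold of 1.3 or more, or of 0.7 or less, the study's rule, with no fold limit for the interaction. Normalized counts are divided by size factors. Genes left without an adjusted P by independent filtering were not called. Alternatives were edgeR 4.0.16, limma 3.58.1 on log2(TPM + 1), other size factors, filters and covariates, and leaving out each library. For the hepatokines they also include adjusted P without the fold limit, which cannot lose a call. That setting was left out for genes of the lists. Shares and correlations were tested by permutation with scipy 1.17.1, the latter with 100000 permutations. The scripts were tested on simulated data with known changes. Intervals are at 95%. Nothing in the labels says that libraries of a group came from separate litters or batches, so P values measure the spread between these mice.

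All 9 hepatokines are named. Of each pathway list the genes called, or up to 4 with the smallest P, are named, apart from some that are not reported here, and for each hepatokine the 3 genes most correlated with it. The members and lists were chosen with earlier results of these data known. Motifs were searched in the GRCm39 sequence before the start of protein-coding genes of the GENCODE annotation, and no amino acid sequence was used here. The marker Tf matched no gene name, which left 5 hepatocyte markers. Replicate numbers of the labels were checked for pairing. Residuals of same-numbered libraries of different groups correlated at -0.1685 to 0.159 (median 0.0367, 25 pairs). Those of other numbers correlated at -0.2198 to 0.2373 (median -0.0151, 96 pairs), and the ranges overlapped. The check cannot tell whether libraries of the same number shared a litter or batch. Within each group the numbers rise with age.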

Additional observations from a re-analysis of the deposited data

Results flagged for a closer look

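In 36 tests of the lowest and highest liver of a group, 7 values stood apart from the rest of their group by Dixon's criterion, which chance alone meets in about 1 in 20 groups. Angptl4 in female PP was 375 normalized counts in replicate 4 and 512 to 558 in the others. Inhbc in male LL was 145 in replicate 1 and 219 to 225 in the others. Inhbe in male PP was 509 in replicate 3 and 279 to 302 in the others. Inhbe in female LL was 142 in replicate 4 and 373 to 458 in the others. Fgf21 in male PP was 0 in replicate 2 and 4.80 to 5.64 in the others. Gdf15 in male LL was 1.20 in replicate 2 and 0 in the others, and in female LL it was 6.57 in replicate 5 and 0.910 to 2.47 in the others. Values of Fgf21 and Gdf15 rest on a few counts each, and the rate of 1 in 20 need not hold for them. Where the other livers are all at 0, as for Gdf15 in male LL, any count stands apart by this criterion.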

How the results depend on the processing

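Of 1086 log2 fold changes of single hepatokines under alternatives, 1002 kept their direction and side of the threshold, 12 lost and 10 gained a call, and 62 changed sign, none of the latter in a called difference. The count of 1 in female LL against PP (Lect2) fell to 0 with edgeR, age, fragment length, the length offset, the replicate block or TPM, and was 0 to 1 when single libraries were left out. The count of 0 in female PP against male PP rose to 1 with age as a term (Angptl6) and to 5 with limma on TPM, and was 0 to 1 without single libraries. Calls for Lect2 and Angptl6 in female LL against male LL held in 21 of 21 alternatives each, which include the rule without the fold limit, where a call cannot be lost. The replicate block changed no other call of a hepatokine. Some genes of the lists lost theirs, such as Klb in females by genotype (DESeq2 adjusted P 0.114). Whether the replicate numbers pair the libraries was not settled.

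With limma on TPM the median of all genes moved by 0.21 in males by genotype, 0.50 in PP and 0.20 in LL by sex, and -0.29 in the interaction. It called 4223 genes higher and 84 lower in female PP against male PP, where DESeq2 called 402 and 303, 382 and 69 in LL by sex, where DESeq2 called 364 and 305, and 0 for genotype in males, females, the average and the interaction, with 1745, 895, 1140 and 1657 at an unadjusted P below 0.05. Relative to that median, the PP sex difference was 0.64 for Angptl6, 1.24 for Angptl8, 0.58 for Inhbc, 0.70 for Lect2 and 0.27 for Selenop. Over all genes edgeR called 3 in males and 3 in females by genotype, where DESeq2 called 31 and 72, and 9 and 0 where DESeq2 called 107 and 13 for the average and the interaction (676 at an unadjusted edgeR P below 0.05 for the latter). Female LL against PP called 44 genes with age, 14 with fragment length and 28 with the length offset, and the average 56, 44 and 72. LL by sex called 432 with fragment length against 669, and the interaction 8 without independent filtering. With the offset, genes higher and lower were 28 and 25 in males (23 and 8 without it), 11 and 17 in females (40 and 32), 35 and 37 in the average (65 and 42) and 8 and 4 in the interaction (7 and 6).

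These values changed sign. In male LL against PP, Angptl4 was -0.12 with fragment length and -0.22 with the offset, Angptl6 -0.0206 and Inhbc -0.0151 with fragment length, Selenop -0.0645 with the offset, Inhbe 0.0213 with age, 0.21 with the offset and 0.40 in TPM, and Lect2 0.19 in TPM. In females, Angptl4 was -0.00029 and Selenop -0.0488 with fragment length, and Selenop -0.0898 with the offset and -0.21 in TPM. For PP by sex, TPM gave 0.38 for Angptl4 and 0.53 for Inhbe, and the offset -0.0243 for Selenop. For LL by sex, TPM gave 0.29 for Angptl4 and 0.26 for Selenop, and fragment length -0.0526 for Inhbe. In the average, Angptl4 was -0.0613 with fragment length and -0.0401 with the offset, Inhbe -0.0848 with fragment length, and Lect2 -0.0312 and Selenop -0.0772 with the offset. In the interaction, TPM gave -0.0882 for Angptl4, -0.48 for Angptl8, -0.35 for Inhbc, -0.12 for Inhbe and -0.13 for Lect2, and the offset -0.0635 for Angptl8. The share of Angptl4-202 differed by 8.64 points in males and 1.89 in females as a share of TPM, a sign that rests on a single PP library in each sex. The cause was not tested.

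Without single libraries, males by genotype ran from -0.22 to 0.26 for Angptl4, -0.41 to 0.25 for Angptl6, -0.0699 to 0.14 for Inhbc and -0.35 to 0.23 for Inhbe. Females ran from -0.96 to 0.23 for Angptl8 and -0.0101 to 0.0588 for Selenop. LL by sex ran from -0.35 to 0.13 for Angptl4, -0.0339 to 1.05 for Fgf21, -0.11 to 0.41 for Inhbe and -0.0859 to 0.0393 for Selenop. The average ran from -0.0135 to 0.23 for Angptl4, and the interaction from -0.0726 to 0.41 for Angptl4, -0.39 to 0.80 for Angptl8, -0.75 to 0.34 for Fgf21 and -0.0108 to 0.21 for Inhbc. The difference in Angptl4-202 share in females ran from -2.66 to 1.29 points.

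Depth limits Fgf21, Gdf15 and Angptl6, whose values rest on few counts, and groups of 4 or 5 leave intervals wide for Angptl8.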

Other observations

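The 28 pairs of the 8 tested hepatokines were compared from mouse to mouse after the mean of each group was removed from log2(normalized count + 1), over 18 libraries. No pair passed the adjustment over the 28. The strongest was Fgf21 with Inhbc (Pearson r = 0.66, permutation P = 0.00457, adjusted 0.128; Spearman rho = 0.67, permutation P = 0.00629, adjusted 0.176). Its r was 0.62 without the 2 libraries farthest from the median, 0.70 in males and 0.62 in females. Angptl4 with Inhbe gave r = 0.64 (permutation P = 0.0166, adjusted 0.233; rho = 0.45, permutation P = 0.0973, adjusted 0.545), which was 0.46 without the 2 farthest libraries, 0.85 in males and 0.45 in females.

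Among 5644 genes with a mean of at least 50 normalized counts, the profiles most like Angptl4 over 18 libraries, on the same scale, were those of Acot1 (r = 0.88), a PPARalpha target, Txnip (0.86), a ChREBP target, and Pex11a (0.85), a peroxisomal protein gene. Lect2 was closest to Chchd3 (0.87), Tmem243 (0.86) and Itm2b (0.85), and Angptl8 to Esrp2 (0.88), Mrpl54 (0.87) and Aup1 (0.85). Inhbe was closest to Smarce1 (0.88), St7l (0.82) and Rnf121 (0.82), and Inhbc to Ets2 (0.75), Foxa3 (0.73) and Gm10275 (0.73). Among 5645 genes, Fgf21 was closest to Atp5f1b (0.77), Prkag1 (0.74) and Cript (0.74), and Angptl6 to Galk1 (0.77), Gcat (0.76) and Ip6k1 (0.75). Selenop was closest to Pcbp2 (0.74), Cd2ap (0.73) and Tor1aip2 (0.72), again among 5644 genes. Libraries of these mice also share depth and fragment length, so the coefficients are a description.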
